A study of Rattus norvegicus with 16 samples.

Results

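The epidermal growth factor (EGF) receptor ligands and receptors were followed in the outer medulla of the rat kidney during dosing with 2-amino-4-nitrophenol (ANP). The members were fixed by name: the ligand genes Areg, Hbegf, Ereg, Btc, Tgfa and Egf and the receptor genes Egfr, Erbb2 and Erbb3. They are 9 of the 15284 genes named on the array, and 18 probes report them. Male Crl:CD Sprague-Dawley rats, 5 weeks old at the first dose, received either ANP in corn oil at 750 mg/kg/day or corn oil alone, once daily by gavage; RNA came from 3 animals of each group. RNA from the whole outer medulla, which holds several tubule segments with vessels and interstitial cells, was hybridised to 16 one-colour Agilent arrays. The groups are ANP and vehicle at days 1, 7, 14 and 28. At days 1 and 7 each group was 1 array of RNA pooled from 3 animals, so these days have no replicate check. At days 14 and 28 each group was 3 arrays, each from 1 animal. Levels are log2 of the background-subtracted signal relative to the 75th percentile of the array, and they are compared between samples for 1 probe at a time, not between genes.

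Ligands of this family are made as membrane-bound precursors that proteases of the ADAM family release. A released ligand binds Egfr, which pairs with itself or with another receptor of the family and starts signalling through the RAS-ERK, PI3K-AKT and STAT routes. Erbb2 binds no ligand and acts as the preferred partner, and Erbb3 binds neuregulins and has little kinase activity of its own. In the kidney, Egf is made mainly by the thick ascending limb and the distal convoluted tubule, and amphiregulin and heparin-binding EGF-like growth factor are known as ligands that injured tubules make.

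The promoter of Areg is shown first because Areg was the member with the broadest difference between ANP and vehicle, and that of Hbegf because it was a second ligand that was higher in the ANP pool of day 1. RefSeq promoter sequences of the GRCr8 assembly were found for 7 of the 9 members, and Ereg and Erbb3 had no entry. Each line gives the 250 bases before the annotated start, 5′ to 3′ on the gene's strand. Capitals mark a cAMP response element.
Areg, chr14:17265642-17265891, minus strand: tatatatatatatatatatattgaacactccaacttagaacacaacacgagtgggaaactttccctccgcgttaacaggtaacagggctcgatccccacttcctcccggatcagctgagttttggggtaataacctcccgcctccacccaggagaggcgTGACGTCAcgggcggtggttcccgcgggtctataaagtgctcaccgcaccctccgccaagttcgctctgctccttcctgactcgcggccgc
Hbegf, chr18:28390221-28390470, minus strand: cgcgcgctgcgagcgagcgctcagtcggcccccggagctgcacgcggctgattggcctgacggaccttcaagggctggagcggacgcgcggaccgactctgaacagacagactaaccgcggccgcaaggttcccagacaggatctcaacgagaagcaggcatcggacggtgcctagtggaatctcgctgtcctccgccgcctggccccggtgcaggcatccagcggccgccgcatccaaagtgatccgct
Areg holds 1 cAMP response element, TGACGTCA, at position -91 from the start, and 1.59% of the 33469 promoter windows of this length hold that motif on either strand. For each member 1 window was searched, and any further annotated start was not. The windows of the other 6 members with a sequence hold none. None of the 7 windows searched holds the AP-1 site TGANTCA (6.34% of all windows), the antioxidant response element core TGACNNNGC (10.1%) or the amino acid response element core TGATGNAA (3.4%). The motifs were chosen with the expression results known, and a match of letters is not evidence of binding. On chromosome 14 of the RefSeq gene table, Btc, Areg, Ereg and Epgn stand next to each other in this order.

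Areg, which encodes amphiregulin, was higher after ANP than in the vehicle of the same day at all 4 days, and the difference passed the test at day 28. In the day 1 pools its log2 level was 1.71 with ANP and -2.05 with vehicle, a 13.6-fold difference. In the day 7 pools the level was 0.42 with ANP and -1.73 with vehicle, a 4.46-fold difference. The vehicle pools of both days lay close together, and the ANP pools were far above them. At day 14 the 3 ANP arrays gave -0.36, 1.27 and -0.10, against -0.66, -0.31 and -1.80 in the vehicle arrays. One ANP array of that day lay inside the vehicle range, and the log2 ratio of 1.19 ± 0.57 (SE, n = 3 each) did not pass (limma adjusted p = 0.398). It was 0.69 without ANP replicate 2, the highest of the 6 arrays, and 0.76 without vehicle replicate 3, the lowest (limma adjusted p = 0.736 and 0.615). With slide as a fixed block, which sets the 1 ANP array that shared a slide with the vehicle arrays of that day against them, the log2 ratio was 0.56 ± 0.75 (limma adjusted p = 0.995). At day 28 the ANP arrays gave 1.26, 3.20 and 2.08, against -1.77, -1.20 and -1.12 in the vehicle arrays. Each of the ANP arrays was above each of the vehicle arrays, and Areg rose 11.7-fold, by a log2 ratio of 3.54 ± 0.57 (SE, n = 3 each, 95% interval 2.288 to 4.797, limma adjusted p = 0.00979). In bulk tissue, more cells that make a transcript and more of it per cell cannot be told apart, and the same holds for fewer cells and less RNA per cell.

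The mean levels of Areg, ordered over the 8 conditions, ran from ANP at day 28 (2.18) through ANP at days 1, 7 and 14 to vehicle at days 14, 28, 7 and 1 (-2.05). The spread of the ANP arrays at day 28 took in the pool of day 1, and the spread at day 14 took in the pool of day 7, so these neighbours did not differ beyond their spread. The response at day 28 exceeded that at day 14 by 2.35 ± 0.80 on the log2 scale (limma adjusted p = 0.463 for the difference itself). No gene on the array passed that test of the difference (0% of 11849 genes), and 1098 had an unadjusted p below 0.05.

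The level of Areg was set beside markers of tubular injury. Havcr1 (kidney injury molecule 1) had a log2 ratio of 9.63 between the day 1 pools and 4.23 between the day 7 pools. At day 14 the log2 ratio of Havcr1 was 2.10 ± 0.54 (limma adjusted p = 0.135) and at day 28 it was -0.03 ± 0.54 (limma adjusted p = 0.980; SE, n = 3 each). The level summed over 15 injury markers, a sum that the brightest probes weigh most in, was 374 with ANP and 125 with vehicle at day 1, and 137 with ANP and 135 with vehicle at day 7. Counted by gene, 11 of 16 injury markers stood 2-fold or more above vehicle at day 1, against 4.83% of all genes. At day 7 the count was 4 of 16, against 2.12%. It was 3 of 16 where a signal not well above background was raised to the lowest one that was. The median log2 ratios of the markers were 1.72 and 0.31. None stood 2-fold or more below vehicle, against 4.96% and 2.53% of all genes. The summed level ranged from 137 to 230 in ANP and from 102 to 156 in vehicle arrays at day 14, and from 91.2 to 118.1 in ANP and from 106.7 to 124.9 in vehicle arrays at day 28. At day 14 the log2 ratio was above 0 for 14 of the 15 injury markers tested, with a median of 0.44, and 1 was called, Gpnmb, against 0.481% of all genes. At day 28 it was above 0 for 7 of 15, with a median of -0.03, and 1 was called, Anxa2, against 7.11% of all genes. Summed macrophage and myeloid markers ranged from 114 to 143 with ANP and from 131 to 137 with vehicle at day 28, and their part in the result was not tested. Another measured difference at day 28 was in markers of the cortex: 12 glomerular markers summed to 27.2 to 30.4 with ANP and 43.6 to 53.7 with vehicle, and 5 of the 12 fell, against 2.63% of all genes. The ANP arrays of day 28 also lay on a slide of their own, so slide and treatment cannot be told apart at that day.

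**Figure D1:**
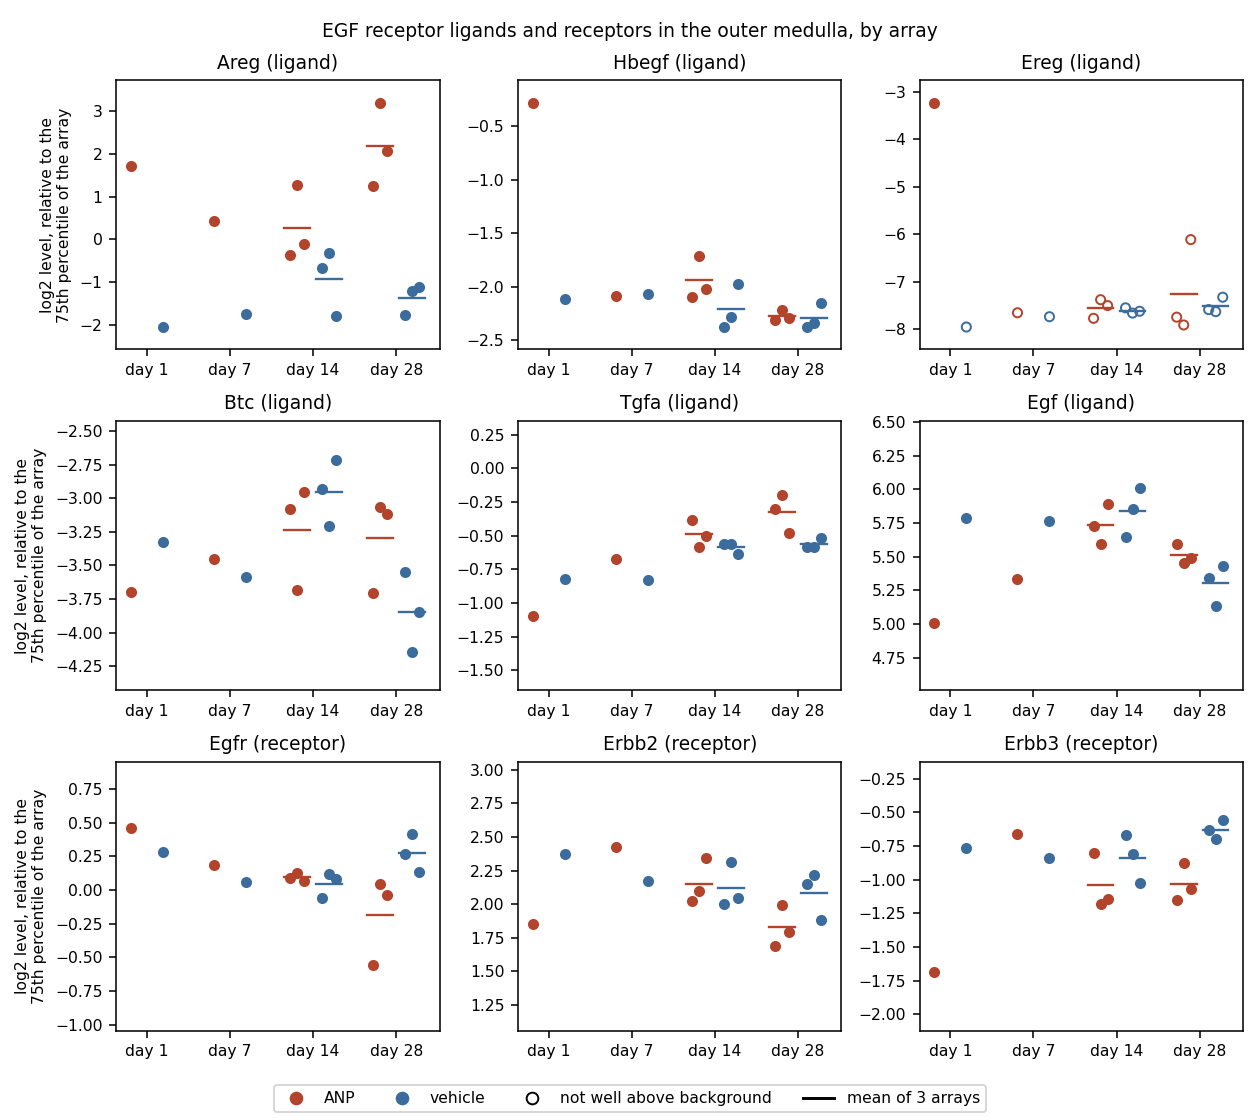
Log2 level relative to the 75th percentile of the array for the 9 members, with ANP left of vehicle at each day; each point is 1 array (a pool at days 1 and 7) and horizontal lines are means of 3 arrays. The pool or mean level of Areg is higher with ANP at each day, and its arrays overlap at day 14. Hbegf and Ereg stand apart in the ANP pool of day 1 alone, and open points are not well above background.

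Hbegf, which encodes heparin-binding EGF-like growth factor, had a log2 level of -0.28 in the ANP pool of day 1, against -2.11 in the vehicle pool. The difference was 3.56-fold, and a second probe gave the same picture with a log2 ratio of 1.87. At day 7 the pools were at -2.09 with ANP and -2.07 with vehicle. The day 14 ANP arrays gave -2.09, -1.71 and -2.02, against -2.38, -2.29 and -1.97 in vehicle arrays. On day 28 the ANP arrays gave -2.31, -2.22 and -2.30, against -2.38, -2.34 and -2.15 in vehicle arrays. The groups overlapped at both days. The log2 ratios were 0.27 ± 0.13 at day 14 (limma adjusted p = 0.403) and 0.02 ± 0.13 at day 28 (95% interval -0.27 to 0.30, limma adjusted p = 0.951; SE, n = 3 each). Thus Hbegf was high in the ANP pool of day 1, and the 15 other arrays lay between -2.38 and -1.71.

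Ereg, which encodes epiregulin, was well above background on 1 of the 16 arrays, the ANP pool of day 1, at a log2 level of -3.23. The signal of the vehicle pool of that day, -7.95, was not well above background. Set against the lowest signal that was well above background on the vehicle pool, the ANP pool was at least 7.07-fold higher. With normexp background correction and quantile normalization, where an offset is added to each signal, the log2 difference between these pools was 1.27, a smaller difference than that bound. No Ereg spot was well above background at days 7, 14 or 28, and Ereg was therefore not tested. One ANP array of day 28 gave -6.11, the highest of those 14 signals, which is also not well above background.

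In the day 1 pools 3 of the 9 members, all ligands (Areg, Hbegf and Ereg), thus stood 2-fold or more above vehicle, and on the chosen probes no member stood 2-fold or more below it. Erbb3 stood that far below on its other probe and with probe means (log2 ratios of -1.22 and -1.07). Over all genes with a signal well above background in one of the pools, 4.83% stood that far above and 4.96% that far below. At day 7 the count was 1 of 8 members (Areg), beside 2.12% of all genes above and 2.53% below. At day 14 none of the 8 members tested was called, against 0.481% of the 11849 genes tested (0.363% higher and 0.118% lower), and no member's groups were free of overlap, against 18.1% of genes. At day 28 the called member was Areg, 1 of 8, against 7.11% of genes in either direction, 4.47% higher and 2.63% lower. At that day 5 of 8 members had groups that did not overlap (Areg, Tgfa and Egf higher with ANP, Egfr and Erbb3 lower), against 32.9% of genes. The median log2 ratio of the 8 members at day 28 was 0.11, beside 0.02 over all genes.

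**Figure D2:**
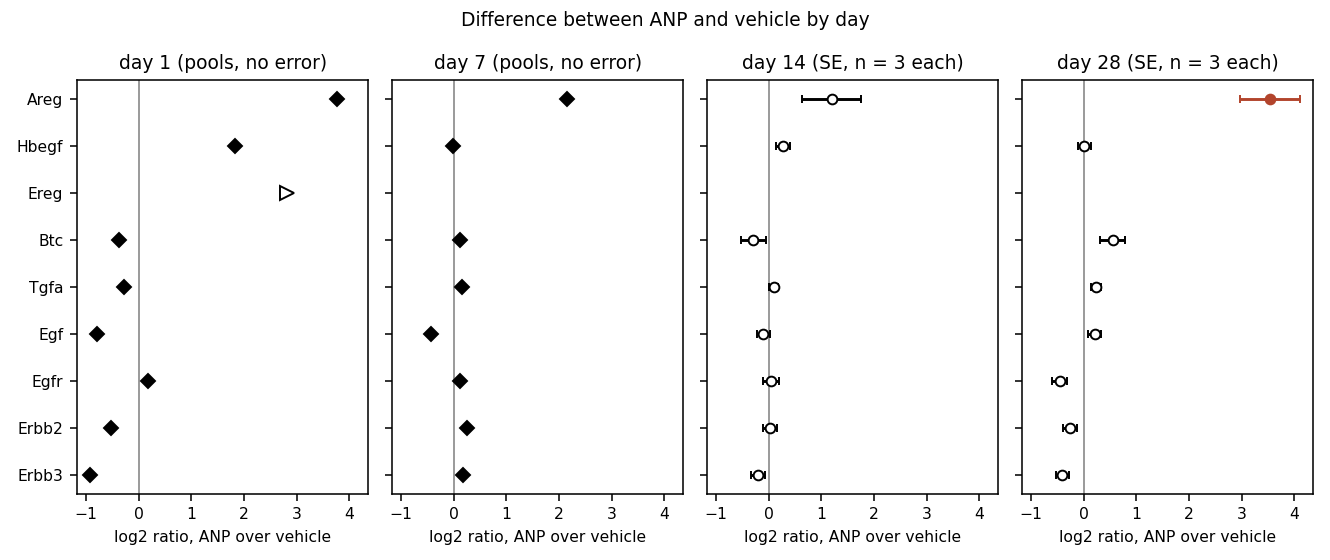
Log2 ratio of ANP over vehicle for each member at each day, on its chosen (brightest) probe; diamonds are 1 pool against 1 pool, the open triangle is the lower bound for Ereg, and circles with bars are the estimate ± SE from 3 arrays a group, filled where the limma adjusted p was below 0.05. At day 28 Areg is the filled point, at 3.54.

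Btc encodes betacellulin, a ligand of both Egfr and Erbb4. Its log2 ratio was -0.38 between the day 1 pools and 0.13 between the day 7 pools. The ANP arrays gave -3.08, -3.68 and -2.95 at day 14, against -2.94, -3.21 and -2.71 in vehicle arrays. At day 28 they gave -3.70, -3.06 and -3.12, against -3.55, -4.14 and -3.85 in vehicle arrays. The groups overlapped at both days. The log2 ratio was -0.29 ± 0.24 at day 14 (limma adjusted p = 0.677) and 0.55 ± 0.24 at day 28 (limma adjusted p = 0.178; SE, n = 3 each). The difference between these responses, 0.84 ± 0.34, did not pass (limma adjusted p = 0.502).

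Tgfa encodes transforming growth factor alpha, and its probes disagreed. On the brighter probe the day 28 ANP arrays gave -0.30, -0.20 and -0.48, against -0.59, -0.59 and -0.52 in vehicle arrays. These groups did not overlap, and the log2 ratio of 0.24 ± 0.09 did not pass (SE, n = 3 each, limma adjusted p = 0.127). On probe A_44_P310168 the day 28 ANP arrays gave -1.18, -0.99 and -0.68, against -1.93, -1.81 and -1.71 in vehicle arrays. The ANP arrays were again all above the vehicle arrays, and here the log2 ratio of 0.87 ± 0.15 passed (SE, n = 3 each, adjusted p = 0.0110 over all probes tested with limma). In the day 1 pools the brighter probe gave a log2 ratio of -0.28 and the other 0.95. Over the 16 arrays the levels of the probes had a correlation of 0.09, and both probes are given for that reason. Counts and medians over the members use the brighter probe.

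Egf encodes the precursor of EGF and differed in the other direction from Areg in the pools. At day 1 its log2 level was 5.01 with ANP and 5.79 with vehicle, 1.72-fold lower with ANP. At day 7 it was 5.33 with ANP and 5.76 with vehicle, 1.35-fold lower. A second probe, whose correlation with the first over the 16 arrays was 0.98, gave log2 ratios of -0.89 and -0.63 at these days. The day 14 ANP arrays gave 5.73, 5.60 and 5.89, against 5.65, 5.86 and 6.01 in vehicle arrays. The groups overlapped, and the log2 ratio was -0.10 ± 0.12 (SE, n = 3 each, limma adjusted p = 0.788). The day 28 ANP arrays gave 5.59, 5.45 and 5.49, against 5.34, 5.13 and 5.43 in vehicle arrays. All ANP arrays were slightly above all vehicle arrays, and the log2 ratio of 0.21 ± 0.12 did not pass (SE, n = 3 each, 95% interval -0.05 to 0.47, limma adjusted p = 0.287). In order of the mean, vehicle at day 14 was highest and ANP at day 1 lowest.

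Markers of the segments that make Egf were set beside it. Umod, the thick ascending limb marker, had log2 ratios of -0.29 and 0.11 between the pools of days 1 and 7, -0.01 ± 0.09 at day 14 and 0.21 ± 0.09 at day 28 (limma adjusted p = 0.973 and 0.166). Kcnj1, a potassium channel of the thick ascending limb, had log2 ratios of -0.14 and -0.79 between those pools, and Cldn16, a tight junction protein of that segment, 0.24 and 0.01. Calb1, a calcium-binding protein of the distal tubule, had a log2 ratio of -1.33 between the day 1 pools and 0.34 between the day 7 pools. Slc12a3, the sodium chloride cotransporter of the distal convoluted tubule, had -0.36 and 0.17. The 19 markers of both segments summed to 910 with ANP and 1065 with vehicle at day 1, and to 1043 with ANP and 1099 with vehicle at day 7. At day 14 the sums ranged from 1175 to 1261 with ANP and from 1177 to 1247 with vehicle, and at day 28 from 1176 to 1318 with ANP and from 1073 to 1226 with vehicle. Pvalb was not well above background in a whole group and was not tested, and Slc12a1 and Trpm6 had no named probe. The part of these segments in the Egf values was not tested.

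Egfr, the receptor of all 6 ligands, was close to vehicle until day 14 and lower with ANP at day 28, where the call depended on the probe. The log2 ratio was 0.18 between the day 1 pools and 0.13 between the day 7 pools, and 0.03 and -0.21 on the other probe. The day 14 ANP arrays gave 0.09, 0.13 and 0.07, against -0.06, 0.12 and 0.08 in vehicle arrays. These groups overlapped, with a log2 ratio of 0.05 ± 0.14 (SE, n = 3 each, limma adjusted p = 0.930). The day 28 ANP arrays gave -0.55, 0.05 and -0.04, against 0.27, 0.42 and 0.13 in vehicle arrays. All ANP arrays were below all vehicle arrays, 1 of them by far the most, and the log2 ratio of -0.45 ± 0.14 did not pass (SE, n = 3 each, 95% interval -0.78 to -0.13, limma adjusted p = 0.0836). Without the lowest ANP array the log2 ratio was -0.27 ± 0.10 (limma adjusted p = 0.147). On probe A_44_P194138 the day 28 ANP arrays gave -2.75, -2.54 and -2.44, against -1.998, -1.78 and -2.07 in vehicle arrays. That probe fell 1.55-fold, by a log2 ratio of -0.63 ± 0.12 (SE, n = 3 each, adjusted p = 0.0196 over all probes tested with limma). The levels of the probes had a correlation of 0.86 over the 16 arrays. The change in response from day 14 to day 28 did not pass on either probe, with differences of -0.50 ± 0.20 and -0.69 ± 0.17 (limma adjusted p = 0.504 and 0.380).

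Erbb3 was 1.89-fold lower with ANP in the day 1 pools, at -1.69 against -0.77 with vehicle, and the other probe gave a log2 ratio of -1.22. At day 7 its log2 ratio was 0.18, and -0.03 on the other probe. The day 14 ANP arrays gave -0.80, -1.18 and -1.14, against -0.67, -0.81 and -1.03 in vehicle arrays. They overlapped, with a log2 ratio of -0.21 ± 0.13 (SE, n = 3 each, limma adjusted p = 0.541). At day 28 the ANP arrays gave -1.15, -0.88 and -1.07, against -0.64, -0.70 and -0.56 in vehicle arrays. All ANP arrays were below all vehicle arrays, and the log2 ratio of -0.40 ± 0.13 did not pass (SE, n = 3 each, 95% interval -0.69 to -0.12, limma adjusted p = 0.0836). The other probe gave -0.42 ± 0.12, which did not pass either (adjusted p = 0.0567 over all probes tested with limma). Beside these receptor values, 4 of 14 collecting duct markers fell at day 28, against 2.63% of all genes, and their sums ranged from 141 to 234 with ANP and from 232 to 274 with vehicle. The part of the collecting duct in the receptor values was not tested.

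Erbb2 was lower with ANP in the day 1 pools on each of its 4 probes, with log2 ratios of -0.53, -0.73, -0.63 and -0.83. Its chosen probe was at 1.85 with ANP and 2.38 with vehicle at day 1, and at 2.43 with ANP and 2.18 with vehicle at day 7. The day 14 ANP arrays gave 2.02, 2.10 and 2.34, against 2.00, 2.31 and 2.05 in vehicle arrays. The day 28 ANP arrays gave 1.69, 2.00 and 1.80, against 2.15, 2.22 and 1.88 in vehicle arrays. The groups overlapped at both days, with log2 ratios of 0.03 ± 0.13 and -0.26 ± 0.13 (SE, n = 3 each, limma adjusted p = 0.948 and 0.249). At day 28 the probes took different signs, -0.26 and -0.27 on one pair of probes and 0.46 and 0.22 on the other pair, and none passed (adjusted p from 0.0903 to 0.552 over all probes tested with limma). No direction is given for Erbb2 at day 28.

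**Figure D3:**
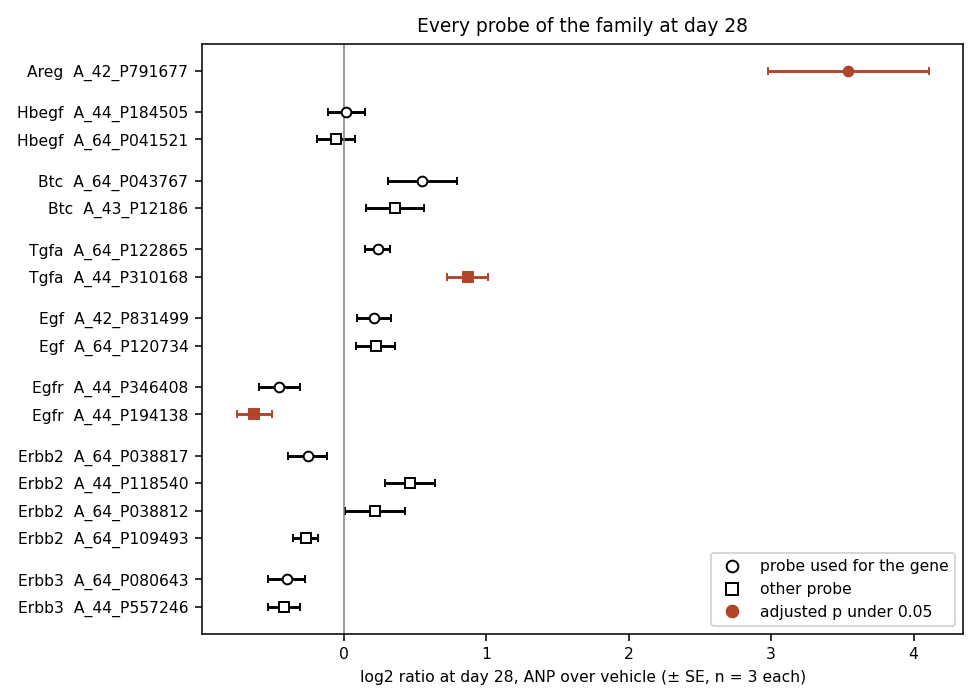
Log2 ratio of ANP over vehicle at day 28 for each of the 17 probes of the family that were tested (estimate ± SE, n = 3 arrays a group), filled where the adjusted p over all probes was below 0.05. Areg, 1 probe of Tgfa and 1 probe of Egfr are filled, the probes of Erbb2 fall on both sides of 0, and those of Erbb3 agree.

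Between the vehicle groups, day 28 was compared with day 14 to see how far the family moves without ANP. Egf fell by a log2 ratio of -0.54 ± 0.12 (limma adjusted p = 0.0191), as did Btc by -0.89 ± 0.24 (limma adjusted p = 0.0398; SE, n = 3 each). For Egf the day 28 vehicle arrays gave 5.34, 5.13 and 5.43, against 5.65, 5.86 and 6.01 at day 14. For Btc they gave -3.55, -4.14 and -3.85, against -2.94, -3.21 and -2.71 at day 14. The later arrays were all below the earlier ones for both genes. These are 2 of 8 members, against 11.2% of all genes in either direction (7.01% higher and 4.17% lower). The groups of 3 of 8 members (Egf, Btc and Egfr) did not overlap, against 34.7% of genes. Egfr was higher in the day 28 vehicle arrays by a log2 ratio of 0.22 ± 0.14, which did not pass (SE, n = 3 each, limma adjusted p = 0.362). The second Egf probe also fell, by 0.63 (adjusted p = 0.0192 over all probes), and the second Btc probe had a log2 ratio of -0.61 (adjusted p = 0.0860). Tgfa fell on probe A_44_P310168, where the day 28 vehicle arrays gave -1.93, -1.81 and -1.71, against -1.12, -1.01 and -0.84 at day 14. The log2 ratio was -0.83 ± 0.15 on that probe (SE, n = 3 each, adjusted p = 0.00861 over all probes tested with limma), beside 0.02 ± 0.09 on the brighter probe (limma adjusted p = 0.908). With probe means Tgfa was called too (log2 ratio -0.40, limma adjusted p = 0.0109), and the 2 members called were then Egf and Tgfa. Leaving out 1 vehicle array ended the Btc call in each of 6 cases, and it ended the Egf call in 4 of them, without replicate 2 or 3 of day 14 and without replicate 1 or 2 of day 28 (adjusted p up to 0.0794).

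The later vehicle arrays also carried more RNA of cortical segments. Between these vehicle groups Slc12a3 rose by a log2 ratio of 2.56 ± 0.43 (limma adjusted p = 0.00701) and Calb1 by 2.35 ± 0.55 (limma adjusted p = 0.0230), while Umod had a log2 ratio of -0.08 ± 0.09 (limma adjusted p = 0.627; SE, n = 3 each). Cldn16 and Kcnj1 had log2 ratios of -0.60 ± 0.18 and -0.52 ± 0.18 (limma adjusted p = 0.0594 and 0.0850). Of 15 markers of the proximal convoluted tubule 9 rose, and their sums ranged from 753 to 887 at day 28 and from 307 to 597 at day 14. Of 12 glomerular markers 7 rose. Of all genes 7.01% rose between these vehicle groups. The dissected zone, the slide and age move together between these vehicle groups and cannot be told apart.

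Of the other members of the family, Nrg1, Nrg2, Nrg4 (neuregulins, the ligands of Erbb3 and Erbb4) and the receptor Erbb4 were measured, and Epgn and Nrg3 were not analysed here. Nrg1 was 3.32-fold higher with ANP in the day 1 pools and 1.92-fold higher in the day 7 pools, and its log2 ratio was 0.46 ± 0.29 at day 14 and 0.64 ± 0.29 at day 28 (limma adjusted p = 0.556 and 0.198; SE, n = 3 each). Nrg2 had log2 ratios of 0.25 and 0.58 between the pools of days 1 and 7. It rose 1.40-fold at day 14 and 1.31-fold at day 28 (limma adjusted p = 0.0449 and 0.0261), and both calls were lost when all its probes were averaged (log2 ratio 0.08 at each day). At day 14 the Nrg2 call held without vehicle replicate 1 alone of the 6 arrays, and at day 28 without ANP replicate 3 alone (adjusted p up to 0.179 and 0.0953). Erbb4 had log2 ratios of 0.03 ± 0.18 and 0.10 ± 0.18 at these days (limma adjusted p = 0.970 and 0.751). Nrg4 had log2 ratios of 0.10 and 0.43 between the pools.

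Among 9 measured genes of ligand shedding, 1 passed at day 28 and none at day 14, against 7.11% and 0.481% of all genes. Adam15, a membrane metalloprotease, rose 1.41-fold at day 28 (log2 ratio 0.50 ± 0.13, limma adjusted p = 0.0415). This call held without vehicle replicate 3 and was lost without each of the other 5 arrays in turn (adjusted p up to 0.139). Adam17, the main sheddase of amphiregulin and heparin-binding EGF-like growth factor, had a log2 ratio of 0.04 ± 0.13 at day 14 and -0.39 ± 0.13 at day 28 (limma adjusted p = 0.941 and 0.0860; SE, n = 3 each). In the day 1 pools the largest log2 ratios were 0.84 for Rhbdf2, a partner of Adam17, -0.61 for the protease Adam9 and -0.34 for the protease inhibitor Timp3. In the day 7 pools they were -0.37 for the protease Adam19, 0.27 for Nrdc and 0.22 for Frmd8.

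Among 19 tested genes of receptor inhibition and feedback, 1 rose at day 14, and 1 rose and 3 fell at day 28. Of all genes 0.363% rose at day 14, and 4.47% rose and 2.63% fell at day 28. The median log2 ratio of the list was -0.16 at day 28, beside 0.02 over all genes. Cblc, an epithelial ubiquitin ligase that takes activated Egfr to degradation, rose 2.02-fold at day 14 and 2.10-fold at day 28 (log2 ratios 1.02 ± 0.16 and 1.07 ± 0.16, limma adjusted p = 0.0275 and 0.00704). Its pools differed by log2 ratios of 0.77 at day 1 and 0.63 at day 7, so Cblc was higher with ANP at each of the 4 days. Its day 14 call was lost without vehicle replicate 1 or 2 and without ANP replicate 2 or 3 (adjusted p up to 0.109), and its day 28 call held without each array in turn. At day 28 Lrig2, a membrane protein of the LRIG family, was lower with ANP than with vehicle, with a log2 ratio of -0.50 (limma adjusted p = 0.0327). The ubiquitin ligase Cblb and the Cbl adaptor Sh3kbp1 were lower than vehicle too, with log2 ratios of -0.56 and -0.39 (limma adjusted p = 0.0328 and 0.0423). The calls of Lrig2 and Cblb held without ANP replicate 3 alone of the 6 arrays, and that of Sh3kbp1 was lost whichever array was left out (adjusted p up to 0.112, 0.117 and 0.128). The vehicle groups moved as well between days 14 and 28. There Lrig2 and Sh3kbp1 rose by log2 ratios of 0.47 and 0.34 (limma adjusted p = 0.0284 and 0.0497). Cblc had -0.58 and Cblb 0.23 between these vehicle groups (limma adjusted p = 0.0369 and 0.291). Errfi1, the feedback inhibitor of Egfr kinase, had a log2 ratio of -0.51 between the day 1 pools, 0.09 ± 0.39 at day 14 and -0.04 ± 0.39 at day 28 (limma adjusted p = 0.953 and 0.960). Dusp6 and Dusp5, phosphatases of ERK that ERK itself induces, had log2 ratios of 0.69 and 1.80 between the day 1 pools. At day 28 Dusp6 had -0.13 ± 0.17 (limma adjusted p = 0.658; SE, n = 3 each). Socs3, an inhibitor of JAK-STAT signalling, had a log2 ratio of 0.68 and Sh3kbp1 -0.32 between the day 7 pools.

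The signal relay list (adaptors, RAS, RAF, MEK, ERK, PI3K, AKT and STAT genes) had 29 measured members. None was called at day 14 or day 28, against 0.481% and 7.11% of all genes. The median log2 ratios of the list were 0.02 and 0.01, close to the 0.01 and 0.02 over all genes. In the day 1 pools Stat5a was 2.39-fold lower with ANP, the one member at least 2-fold apart. Of all genes 4.83% stood that far above vehicle and 4.96% that far below. The small GTPase Nras and the transcription factor Stat3 each had a log2 ratio of 0.55 between these pools. In the day 7 pools Src, Gab1 and Map2k1 had log2 ratios of 0.42, 0.25 and 0.23.

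Genes that ERK signalling is known to induce were mostly higher with ANP in the day 1 pools. Of 24 measured there, 14 stood 2-fold or more above vehicle and 1 stood 2-fold or more below it, against 4.83% and 4.96% of all genes, and their median log2 ratio was 1.33 beside -0.04 over all genes. Among those well above background in both pools, the early transcription factor genes Fos and Egr2 were 14.8-fold and 9.95-fold higher, and the small Maf gene Maff 6.13-fold. Fosl1, at a log2 level of 2.67 with ANP and -7.93 with vehicle, is given no ratio, as 1 of these signals was not well above background. In the day 7 pools the median of the list was 0.15. Of 23 genes measured there 3 stood 2-fold or more above and 2 that far below, against 2.12% and 2.53% of all genes. There Etv1 was 2.13-fold higher, and Arc and Ccn2 were 2.80-fold and 2.44-fold lower. At days 14 and 28 none of the 21 tested genes was called, against 0.481% and 7.11% of all genes. Fosl1 had mean levels of -4.34 with ANP and -7.32 with vehicle at day 14 (limma adjusted p = 0.118). At day 28 Maff had a log2 ratio of 0.91 ± 0.25 and Etv1 -1.54 ± 0.42 (SE, n = 3 each, limma adjusted p = 0.0522 and 0.0530). The medians of the list at days 14 and 28 were 0.07 and -0.04, and 13 and 9 of the 21 genes were above 0. Many of these genes also respond to other stimuli, and the list is not specific to the receptor.

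**Figure D4:**
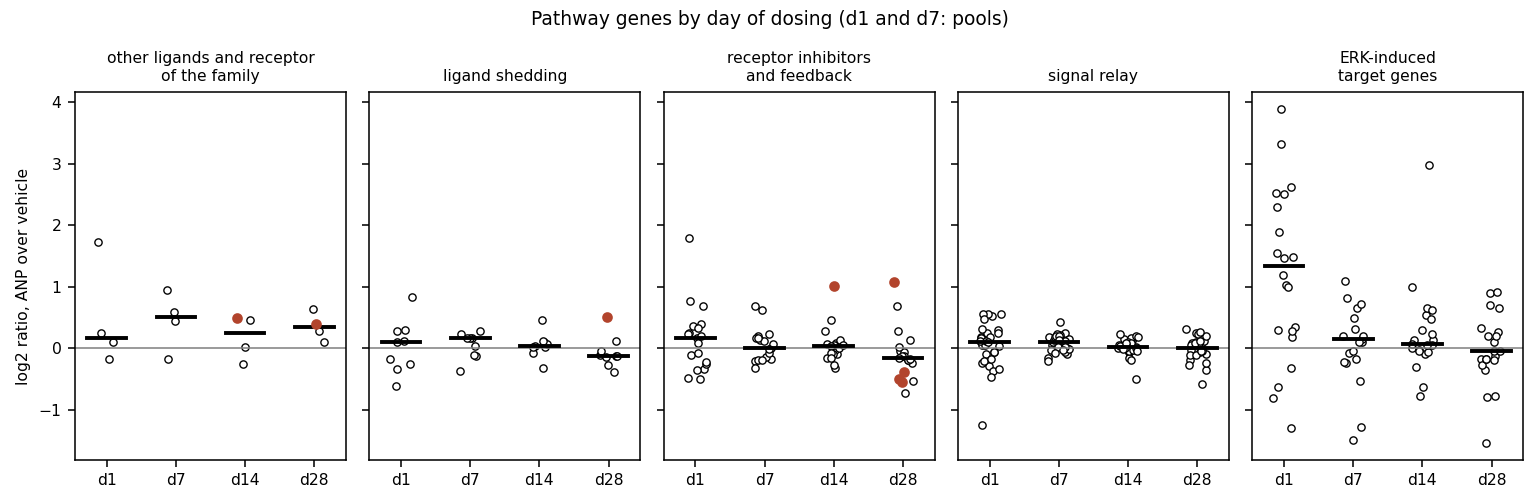
Log2 ratio of ANP over vehicle for each gene of 5 pathway lists by day (d1 and d7 are 1 pool against 1 pool, genes well above background in both pools shown); filled points passed limma's test and horizontal bars are medians over the list. The ERK-induced genes have a median of 1.33 at day 1 and -0.04 at day 28.

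The genes whose level was most like that of Areg over the 16 arrays, of 11269 compared, were Taf9 (r = 0.92), Ogg1 (0.91), Psmc6 (0.90), Pycr1 (0.90) and Mthfd2 (0.90). For Egf, of 11076 compared, they included Gcgr (0.95), Slc2a13 (0.91), Ppp1r1b (0.91) and Mturn (0.91). These correlations are descriptions: the arrays share treatments, days and slides, and the highest of many genes is high by selection.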

How the data were processed

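Total RNA of the renal outer medulla was labelled with Cy3 and hybridised to 1-colour Agilent arrays. Per the submitters' processing notes, spots were read with Agilent Feature Extraction 10.7. The deposited scanner files hold each spot's signal intensity as the authors extracted it: a background-subtracted processed signal, the median signal and the local background, with marks for outlier, saturated and well-above-background spots, per the file headers. A further table of the authors gives a linear ratio, which matched the processed signal over the 75th percentile of its array (on log2 values r was 0.9999 or more). Its column medians were 0.099 to 0.108, and genes are not centred.

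Log2 of the processed signal minus the array's 75th percentile was computed for 61657 probes without controls. Outlier spots (0 to 9 an array) were left out, and none was saturated. The share of probes well above background was 64.75% to 69.6% per array, and the number of arrays limits the precision. By unversioned RefSeq accession, 27460 probes were named through the GRCr8 gene table and 34197 were not. The probe of a gene was the one with the highest mean over the 12 arrays of days 14 and 28. A gene was kept if its probe was well above background throughout 1 or more of the 4 groups. The 11849 genes kept were fitted over 12 arrays with 1 mean per group by limma 3.58.1 under R 4.3.3 (lmFit, eBayes), with Benjamini-Hochberg adjustment and a threshold of 0.05. Pools were compared by log2 ratio without a test, and a gene counts as apart from 2-fold on. The labels call the arrays of days 14 and 28 separate animals. The method was tested on simulated data.

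The members, lists and motifs were chosen with earlier results of these data known. All 9 members are named, as are list genes past the threshold (up to 6 a list), up to 3 with the largest ratio a pool day and list, the 5 genes most like Areg and Egf, and a fixed few markers. Other marker lists used were S3, thin limb, endothelium, fibroblast, lymphocyte, and neutrophil and mast cell. Alternatives were other scalings, normexp (offset 50; on median signals in place of mean signals, which were not used here), the authors' table, other filters, probe means, each probe alone, fewer groups in the fit, replicate and slide blocks, and leaving out each array. One gene that the rule for named genes picked is not reported here.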

Additional observations from a re-analysis of the deposited data

How the results depend on the processing

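Areg stayed called at day 28 under every alternative run, with adjusted p from 0.00327 to 0.0422 and log2 ratios of 3.03 to 4.003 when 1 array was left out. Cblc also stayed called at day 28 (adjusted p up to 0.0327). The 57 genes called at day 14 became 119 with normexp, 28 with no filter, 22 with only the groups compared, 133 with slide as a random block and 0 with slide as a fixed block, which rests on 1 ANP array, and 1 to 56 without 1 array. The 842 genes called at day 28 became 431 with only the groups compared, 1857 with slide as a random block (an estimated correlation of -0.09) and 211 to 754 without 1 array; scaling to the median gave 773 higher and 244 lower in place of 530 and 312. The 1325 of the vehicle comparison became 627, 2202 and 430 to 1596. The difference between days had 0 calls and 0 to 2 without 1 array. With 1 member called at day 28, normexp called 2 (Areg, Tgfa), probe means 4 (with Egfr and Erbb3) and the random slide block 3 (Areg, Egfr, Erbb3); without 1 array it stayed 1. The 2 members called between vehicle groups (Btc, Egf) were Egf and Tgfa with probe means, and became 1 with no filter, 0 with only the groups compared and 0 to 1 without 1 array; the cause was not tested.

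The replicate numbers are not stated to pair animals, and the values did not settle it. At day 14 correlations between arrays of the same number were 0.07 to 0.14, and of different numbers -0.18 to 0.05. At day 28 they were -0.07 to 0.11 and -0.12 to 0.16. With the replicate block 36 genes were called at day 14, 782 at day 28, 1419 between vehicle groups and 0 for the difference. The 3 members 2-fold or more apart in the day 1 pools became 4 with probe means, which added Erbb3. Between vehicle groups Tgfa turned to a called fall with probe means (-0.40, adjusted p = 0.0109) and on its other probe (-0.83, adjusted p = 0.00861). The other changes of sign were in values that passed no test. At day 14 Erbb2 was -0.18 with probe means, -0.10 with the fixed slide block and -0.0242, -0.54 and -0.19 on its other probes, Erbb3 0.0368 and Adam17 -0.0707 with the fixed slide block, and Lrig2 -0.12 with probe means. At day 28 Hbegf was -0.0101 with normexp, -0.0185 with probe means and -0.0539 on its other probe, Erbb2 0.0395 with probe means and 0.46 and 0.22 on 2 probes, Erbb4 -0.0325 with normexp, and Errfi1 0.0187 with median scaling and 0.0177 with the random slide block. For the difference Erbb2 was 0.22 with probe means and 0.49 and 0.76 on 2 probes. Between vehicle groups normexp gave Hbegf 0.058, Tgfa -0.0621 and Erbb2 0.0256, and the other probe gave Hbegf 0.0219. Leaving out 1 array gave at day 14 Egfr -0.0045 to 0.0819, Erbb2 -0.0608 to 0.13, Erbb4 -0.0564 to 0.16, Adam17 -0.0275 to 0.0879, Errfi1 -0.24 to 0.27, Lrig2 -0.0244 to 0.15 and Sh3kbp1 -0.18 to 0.0053; at day 28 Hbegf -0.0265 to 0.0852, Erbb4 -0.0095 to 0.28 and Errfi1 -0.36 to 0.25; and between vehicle groups Hbegf -0.16 to 0.0406, Tgfa -0.004 to 0.0348 and Erbb2 -0.10 to 0.0645.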
